A study of Mus musculus with 15 samples.

Results

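FGF9 was added to immortalised brown preadipocytes, the precursor cells of heat-producing brown fat, and their transcripts were compared with those of untreated cells by RNA sequencing. The comparison was between the 3 FGF9 libraries and the 3 control libraries, chosen by the agent named in the sample labels. These are 6 of the 15 libraries of the series, all of which were in the fit behind the test. It was described across genes: of 29072 genes with a symbol in the deposited table, 13869 reached 0.5 RPKM in at least 3 libraries and were tested. RPKM are reads scaled to transcript length and to the total reads of the library, so levels of different genes can be set side by side on this scale. Each gene was represented by the transcript line with its highest mean level over the 15 libraries. All values below are RPKM levels or log2 differences of them, and a gene is said to have risen or fallen only where it passed the test described below.

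The cells were stromal-vascular preadipocytes of interscapular brown fat of 129SvEv mice, immortalised with the SV40 large T antigen, and every group of the series shared this background. FGF9 was given at 5.56 nM for 48 h with heparin at 1 µg/ml. The control cells had no agent, and their label gives neither a time nor heparin. The FGF8b group, used below as the most similar treatment, had 5.56 nM FGF8b for 48 h. The other groups had 5.56 nM FGF1, or 5.56 nM FGF8b with 2 µM of the GLUT1 inhibitor BAY-876, for 48 h. Their libraries also entered the estimate of spread in the test below. The series text gives heparin to every FGF, whereas the agent label names it for FGF9 alone, and there was no sample with heparin alone. The ligand and heparin can therefore not be told apart in the FGF9 samples. Nothing in the labels tells separate cultures from repeat libraries, so p-values measure only the spread between these samples, which may be technical.

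FGF9 is a secreted fibroblast growth factor that acts on neighbouring cells. It binds FGF receptor tyrosine kinases together with heparan sulfate chains on the cell surface, and the receptors signal through RAS and ERK kinases to ETS transcription factors. The same pathway switches on its own inhibitors, such as Sprouty proteins and dual-specificity phosphatases. In mesenchymal cells FGF signals are known to drive proliferation and to hold back or redirect differentiation, and brown fat is known for the uncoupling protein UCP1, which turns mitochondrial fuel burning into heat.

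The FGF9 libraries held 37.3 to 41.6 M reads and the control libraries 31.6 to 37.5 M. Correlations of log levels across genes were 0.9913 to 0.9962 among FGF9 libraries, 0.9933 to 0.9959 among control libraries and 0.9146 to 0.9228 between the groups. All 10 markers of the fibroblast lineage were above 1 RPKM in both groups, with a summed level of 5180 to 5760 RPKM in control and 3220 to 3420 in FGF9. The 10 mature adipocyte markers summed to 5.07 to 6.77 RPKM in control and 6.07 to 7.68 in FGF9, with Plin1, Lep, Cfd and Pck1 at 0 reads. Macrophage and leukocyte markers summed to 6.37 to 8.03 and 5.38 to 7.8 RPKM, and Ptprc, the pan-leukocyte marker, had 0 reads. Mural markers summed to 4.9 to 6.35 RPKM in control and 7.08 to 8.76 in FGF9, and bone and cartilage markers to 2.96 to 4.09 and 4.53 to 5.63. For muscle the sums were 6.15 to 7.58 and 5.88 to 6.99 RPKM, for endothelium 14.2 to 14.3 and 9.57 to 14.4, and for Schwann and neural cells 15.5 to 16.5 and 16.2 to 18.9. The part of these marker levels in the results was not tested. One control library, replicate 2, stood apart in 18S ribosomal RNA (Rn18s), at 4170 RPKM against 1101 and 350.6 in the other control libraries and 258.1 to 504.1 in FGF9.

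Most genes measured differed between FGF9 and control cells. In limma, a linear model with a shared estimate of spread, on log2(RPKM + 0.5), 9108 of 13869 genes passed a Benjamini-Hochberg adjusted p of 0.05, which is 65.7% of the genes tested. Of these, 5369 were higher in FGF9 (38.7% of the genes tested) and 3739 lower (27%), and the median log2 change of all genes tested was 0.095. With libraries rescaled by a trimmed mean, the median of all genes shifted by -0.095 and the split became 4310 higher and 4543 lower. With only the 6 FGF9 and control libraries fitted, 4941 genes were higher and 3457 lower. At a change of at least 2-fold, 778 genes were higher (5.61%) and 1164 lower (8.39%), so large changes were more often falls. No overlap between the 3 FGF9 and the 3 control libraries was seen for 9121 genes (65.8%). With so wide a change, the share of a gene group that passed is read below against these percentages. The gene lists were chosen with earlier results of these data known, so such a comparison describes them and is no independent support. In a bulk measurement, fewer cells of a kind and less RNA per cell cannot be told apart. Because 0.5 RPKM is added before the logarithm, log2 changes understate those of genes near or below that level, and reads recovered from the RPKM steps are given for several of them. The share of genes called was 54.9% of 1570 genes below 1 RPKM, 62.3% of 5732 between 1 and 10, 71.4% of 5797 between 10 and 100 and 69.8% of 769 above 100 RPKM.

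**Figure D1:**
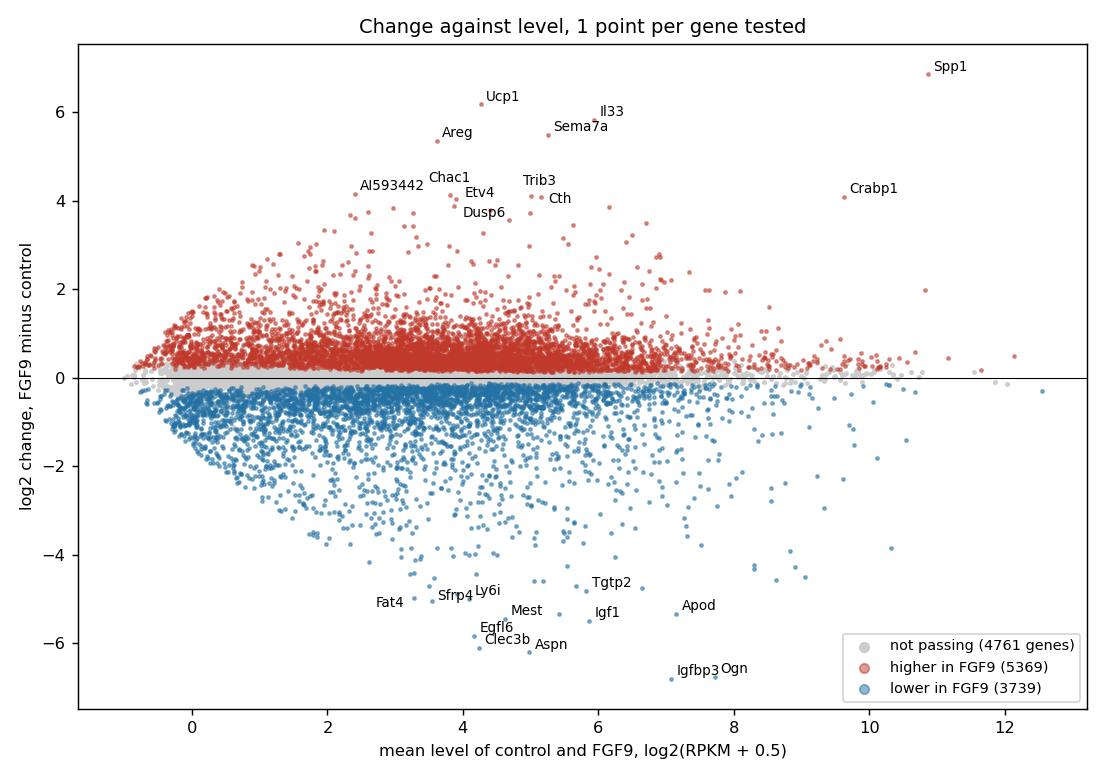
Each point is 1 of 13869 genes, with its mean log2(RPKM + 0.5) over control and FGF9 on the x axis and its log2 change, FGF9 minus control, on the y axis. Red points are the 5369 genes higher in FGF9, blue points the 3739 lower, and Spp1 combined one of the highest levels with a change of 6.86.

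Spp1 encodes osteopontin, a secreted phosphoprotein of matrix and immune signalling (chromosome 5, 104435118 to 104441050 in GRCm38). It was at 30.5, 31.5 and 31.8 RPKM in the 3 control libraries and 3858, 3524 and 3675 in the 3 FGF9 libraries, a log2 change of 6.86 ± 0.06 (SE; adjusted p = 6.40e-20, limma). The groups were far apart and the libraries of each lay close together, and only 3 genes had a higher mean level in the FGF9 cells. Il33, an alarmin cytokine, was at 2.05, 1.53 and 1.32 RPKM in control and 131, 106 and 121 in FGF9 (log2 change 5.82 ± 0.12). Sema7a, a membrane-anchored semaphorin that signals through integrins and plexin C1, went from 1.25, 1.22 and 1.0 RPKM to 65.01, 82.8 and 74.9 (log2 change 5.49 ± 0.11). Neither gene had a control library within 10 times of an FGF9 library.

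Areg, the EGF receptor ligand amphiregulin, was almost silent in control, at 0.0752, 0.111 and 0.07 RPKM from 10 reads in all. In FGF9 it was at 25.96, 21.6 and 22.7 RPKM from 3176 reads. Crabp1, which binds retinoic acid in the cytosol, was already abundant in control at 91.4, 96.5 and 73.1 RPKM and rose to 1263, 1745 and 1448 (log2 change 4.08 ± 0.11). AI593442, a gene without a well known function, was at 0.024, 0.0664 and 0.0895 RPKM in control and 8.21, 10.8 and 9.55 in FGF9. The other named rises were Ucp1, the ETS factor Etv4, the ERK phosphatase Dusp6, and Chac1, Trib3 and Cth of the amino acid stress response, and their values follow with their groups.

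The 12 named falls came from several kinds of gene. Igfbp3, which carries insulin-like growth factors, was at 268, 247 and 285 RPKM in control and 1.94, 1.85 and 1.93 in FGF9 (log2 change -6.79 ± 0.11, adjusted p = 2.02e-16, limma). Ogn, the small proteoglycan osteoglycin, went from 369, 428 and 454 RPKM to 3.66, 2.83 and 3.64 (log2 change -6.75 ± 0.09). Igf1, the growth factor itself, went from 119.6, 118 and 103 to 2.0, 1.89 and 2.23 RPKM (log2 change -5.49 ± 0.16). These 3 transcripts stood above 100 RPKM in every control library and below 4 RPKM in every FGF9 library.

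Aspn, the proteoglycan asporin, fell from 61.6 ± 5.08 to 0.348 ± 0.123 RPKM (SD, n = 3), and Egfl6, a secreted EGF-repeat protein, from 34.6 ± 2.56 to 0.118 ± 0.0491. Clec3b, the plasminogen-binding protein tetranectin, had 3797 reads in the control libraries and 5 in the FGF9 libraries, at 42.3, 32.7 and 35.1 RPKM and 0.0252, 0.097 and 0. Apod, the lipid carrier apolipoprotein D, fell from 277 ± 15.3 to 6.43 ± 0.859 RPKM, Mest, an imprinted gene linked to fat cell growth, from 47.7 ± 0.324 to 0.609 ± 0.0671, and Sfrp4, a secreted WNT antagonist, from 22.1 ± 1.96 to 0.183 ± 0.0633. Fat4, a giant cadherin, fell from 18.3 ± 1.44 to 0.096 ± 0.0573 RPKM. Tgtp2, an interferon-induced GTPase with a near-identical neighbour, fell from 109 ± 13.9 to 3.36 ± 0.119 RPKM. Ly6i, a surface protein of a family with close copies, was the least even of the 12, at 47.6, 40.8 and 10.1 RPKM in control and 0.323, 0.349 and 0.433 in FGF9. How reads shared with such copies were assigned is not given in the sources used here, so the levels of Tgtp2 and Ly6i are uncertain.

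**Figure D2:**
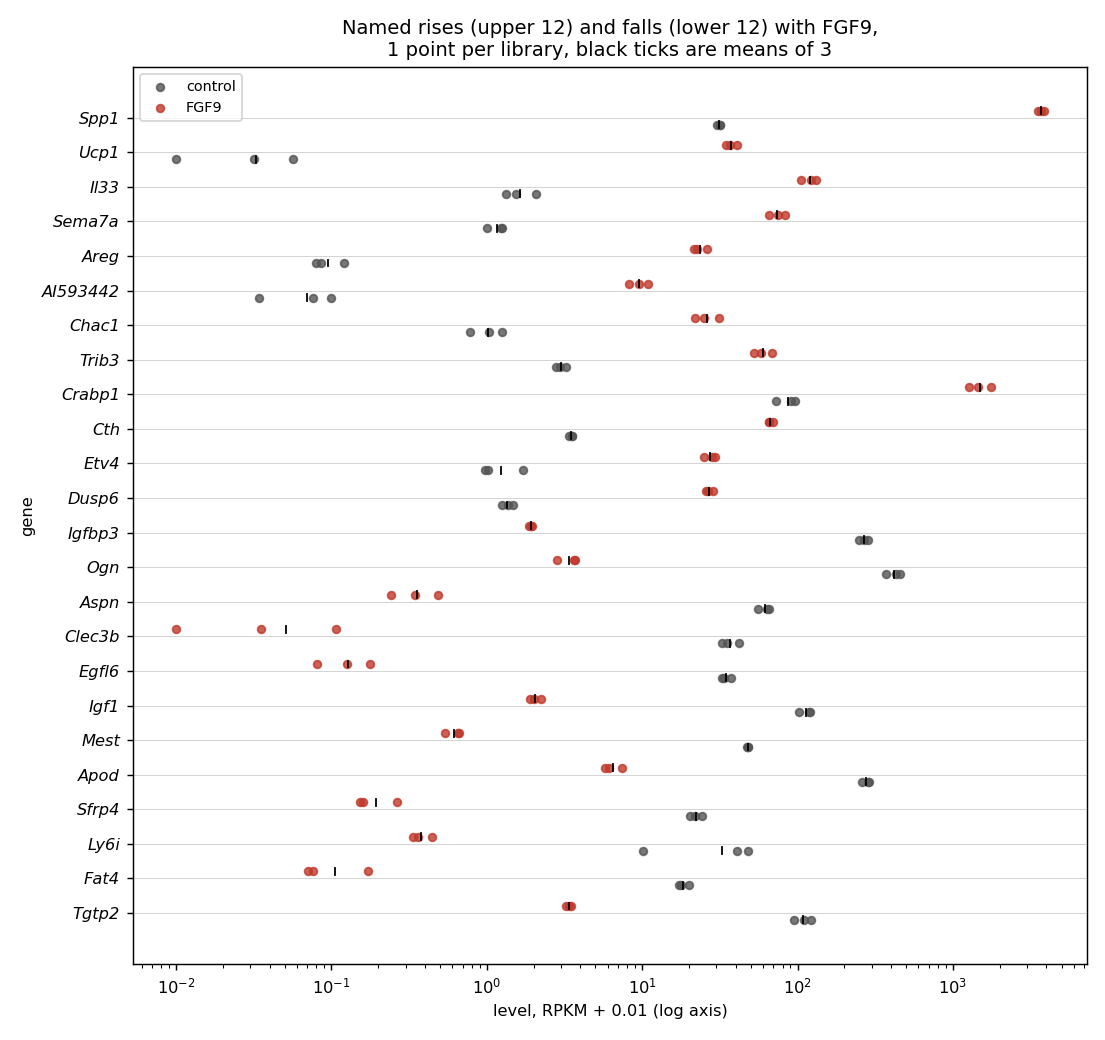
Levels in RPKM + 0.01, on a log axis, of the 12 genes with the largest rises and the 12 with the largest falls, with 1 point per library for control in grey and FGF9 in red and black ticks at the means of 3. The genes were taken among those with a mean of at least 1 RPKM in either group, no overlap and no predicted model. The lack of overlap was thus a condition of the choice. Among the genes that fell Ly6i has the widest control spread on the log axis, from 10.05 to 47.6 RPKM.

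Of the FGF receptor genes tested, Fgfr2 fell, and Fgfr1 and Fgfr3 did not pass. Fgfr1, the receptor gene with the highest level here, was at 79, 64.8 and 69.01 RPKM in control and 66.6, 74.7 and 72.5 in FGF9, and did not pass the test (log2 change 0.01 ± 0.07, adjusted p = 0.916, limma). Fgfr2 was at 3.23 ± 0.431 RPKM in control and 1.24 ± 0.309 in FGF9 (log2 change -1.11 ± 0.20), and Fgfr3 at 0.437 and 0.609. Though not called in the main fit, Fgfr3 was called higher after quantile normalisation (log2 change 0.34) and without control replicate 3 (0.39). With 1 transcript line per gene, the b and c splice forms of the receptors, which differ in ligand preference, cannot be told apart. Of 24 tested receptor, coreceptor and heparan sulfate genes, 6 were higher and 9 lower, with a median log2 change of 0.03 (5 and 10 under trimmed-mean scaling). The largest fall was Sulf2, an enzyme that removes sulfate from heparan sulfate, from 35.5, 35.5 and 32.1 RPKM to 1.08, 1.12 and 1.1. Sulf1, its relative, fell from 10.9 ± 0.533 to 5.05 ± 0.248 RPKM. The carrier glypican Gpc1 rose from 5.6 ± 0.547 to 13 ± 2.01 RPKM, and Gpc6 fell from 20.4 ± 2.78 to 8.24 ± 1.19. The coreceptor genes Klb and Kl of the hormone-like FGFs stayed at 2 to 7 reads a group.

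The cells' own FGF ligands changed in both directions. Fgf7 and Fgf10, ligands of mesenchyme for epithelium, fell from 76.2 ± 2.73 to 42.7 ± 2.97 and from 9.21 ± 0.37 to 2.22 ± 0.308 RPKM. Fgf21, a stress hormone of liver and fat, was at 0.181, 0.0668 and 0.0281 RPKM in control and 2.3, 3.89 and 2.58 in FGF9, with 9 and 331 reads. Fgf1 rose from 0.159 ± 0.035 to 1.33 ± 0.0575 RPKM, and Fgf2 did not pass at 0.889 and 0.945. Fgf9 itself had 0 reads in control and 1 in FGF9, so its transcript was not detectable above that level at this depth.

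Feedback inhibitors of the ERK pathway went both ways: of 20 tested, 10 were higher and 4 lower, and 8 of the rises were at least 2-fold. Dusp6, the phosphatase specific for ERK, was at 1.45, 1.24 and 1.35 RPKM in control and 25.6, 28.4 and 26.4 in FGF9 (log2 change 3.89 ± 0.09, adjusted p = 6.22e-15, limma). Spry4, a Sprouty inhibitor of receptor signalling, went from 0.296, 0.367 and 0.384 RPKM to 10.9, 10.7 and 10.9 (log2 change 3.74 ± 0.08), and Dusp4, a nuclear ERK phosphatase, from 0.989 ± 0.142 to 15.4 ± 1.35. The groups of these 3 genes were apart by more than 10 times. Spry2, another Sprouty gene, was at 23.6 ± 1.01 RPKM in control and 26.3 ± 2.32 in FGF9 and did not pass. Spred3, a relative of Sprouty, rose from 1.02 ± 0.0851 to 5.35 ± 0.0694 RPKM and Dusp9 from 0.0727 ± 0.0291 to 1.68 ± 0.16. Dusp10, a phosphatase that favours the stress kinases JNK and p38, fell from 6.5 ± 0.476 to 1.45 ± 0.0496 RPKM. Il17rd, the membrane inhibitor SEF, fell from 1.82 ± 0.144 to 0.466 ± 0.0438, and the other lower members were Dusp1 and Dusp14.

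In a list of 27 genes of ETS, AP-1 and EGR transcription factors, which also held Kruppel-like factors, 18 were higher and 5 lower. Their median was 0.66 against 0.095 for all genes tested. The PEA3 group of ETS factors, classical readouts of FGF signalling, rose together. Etv4 was at 1.7, 0.962 and 1.01 RPKM in control and 24.99, 29.3 and 28.1 in FGF9 (log2 change 4.04 ± 0.13), Etv5 at 3.83, 2.63 and 3.2 and 33.9, 36.7 and 35.2, and Etv1 at 1.17 ± 0.117 and 8.47 ± 1.07. Etv5 and Etv1 had no overlap between their groups, nor had Etv4, for which this was a condition of being named among the largest rises. Of all genes tested, 65.8% had no overlap. The AP-1 subunit Fosl1 rose from 2.08 ± 0.232 to 10 ± 1.16 RPKM and the immediate early gene Ier3 from 4.48 ± 0.368 to 16.7 ± 2.48. The 5 lower members were Klf2, Klf4, Klf6, Fosl2 and Jund, of which Klf4, a Kruppel-like factor, fell from 13.9 ± 1.7 to 4.11 ± 0.874 RPKM.

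Brown fat genes did not move as a set: 15 of 27 listed thermogenic and identity genes were tested, of which 5 were higher and 6 lower, with a median of -0.02. Ucp1 was the exception in size, with 0.0464, 0 and 0.0216 RPKM in control and 34.8, 40.6 and 36.9 in FGF9. That is 3 reads against 5498, a ratio of levels of 1610 with an exact 95% interval of 549 to 7790 for counting error only (log2 change 6.18 ± 0.11, adjusted p = 5.71e-16, limma). The fitted change depends on the added 0.5 RPKM and understates that ratio. Prdm16, a regulator of brown fat identity, rose from 0.226 ± 0.0705 to 1.06 ± 0.276 RPKM and Cox7a1, a muscle and brown fat form of a respiratory subunit, from 1.23 ± 0.658 to 2.44 ± 0.226. Ppargc1a, the coactivator of mitochondrial biogenesis, fell from 0.318 ± 0.0634 to 0.117 ± 0.051 RPKM. Dio2, which activates thyroid hormone, fell from 1.23 ± 0.12 to 0.307 ± 0.0601, and Pdk4, which restrains glucose oxidation, from 10.6 ± 0.502 to 1.52 ± 0.0236. Among the listed genes below the level for testing, Elovl3 had 1 read in control and 36 in FGF9, the potassium channel gene Kcnk3 had 2 and 58, Irf4 had 57 and 4, Cidea had 0 and 4, and Cox8b had none. These 5 were singled out after their values were seen.

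Differentiation genes of fat cells were mixed, with 5 of 23 higher and 10 lower. Pparg, the nuclear receptor that drives fat cell differentiation, fell from 3.93, 3.42 and 3.9 RPKM to 2.39, 2.12 and 2.58 (log2 change -0.57 ± 0.11) and Cebpa from 2.61 ± 0.215 to 1.82 ± 0.163, the latter without passing in voom. Cebpb, an early driver of differentiation that is also a stress gene, rose from 3.19 ± 0.375 to 8.44 ± 1.69 RPKM. The triglyceride synthase Dgat2 rose from 1.65 ± 0.147 to 5.31 ± 0.402 RPKM, and lipoprotein lipase (Lpl) fell from 78.8 ± 10.8 to 15.1 ± 1.06. Zfp521, a zinc finger inhibitor of fat cell commitment, fell from 19 ± 0.825 to 3.85 ± 0.0767 RPKM. Adiponectin (Adipoq) had 1 read in each group, so this product of mature fat cells was not measurable at this depth.

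Progenitor genes fell: 16 of 21 tested were lower and 3 higher, with a median of -0.60. Pdgfra, the receptor that marks adipocyte precursors, was at 279, 274 and 276 RPKM in control and 29.9, 30.4 and 30.9 in FGF9 (log2 change -3.16 ± 0.07). Ly6a, the stem cell antigen SCA-1, went from 1047, 932 and 1067 RPKM to 48.1, 43.8 and 42.3 (log2 change -4.49 ± 0.08), and has close copies. Dpt (dermatopontin) fell from 82.2 ± 2.75 to 5.9 ± 0.348 RPKM and Ly6c1 from 82.1 ± 5.24 to 6.77 ± 0.341. Cd34 changed less, from 171 ± 3.73 to 124 ± 3.3 RPKM. Pi16, a marker of early fibroblast progenitors, went the other way, from 0.892, 0.761 and 0.783 RPKM in control to 7.48, 11 and 8.19 in FGF9. The other rises of the list were Thy1 and Cd44, both surface glycoproteins of fibroblasts. Of 15 tested retinoid genes, 5 were higher and 9 lower. Aldh1a3, which makes retinoic acid, rose from 0.141 ± 0.0246 to 2.18 ± 0.433 RPKM, its relative Aldh1a1 fell from 3.83 ± 0.45 to 0.0409 ± 0.0167, and the retinaldehyde reductase Dhrs3 fell from 26.1 ± 0.77 to 4.58 ± 0.769.

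The ATF4 programme, which cells use when amino acids run short or protein folding fails, was raised in almost every member listed. Of 20 genes, 18 were higher and 1 lower, with a median of 1.98, and 17 rose at least 2-fold where 5.61% of all genes did. The list was chosen with earlier results of these data known. Atf4 itself was at 81.6, 78.6 and 78.95 RPKM in control and 312, 317 and 318 in FGF9 (log2 change 1.98 ± 0.04). Chac1, which degrades glutathione, was at 1.25, 1.02 and 0.773 RPKM and 21.9, 31.3 and 24.8 (log2 change 4.13 ± 0.13), and Trib3, a pseudokinase, at 2.96, 2.79 and 3.24 and 52.5, 68.9 and 58.3 (log2 change 4.11 ± 0.09). The FGF9 libraries of Atf4, Chac1 and Trib3 all lay above the control libraries. For Chac1 and Trib3 this was a condition of being named among the largest rises. Of all genes tested, 65.8% had no overlap between the groups. Ddit3, the stress factor CHOP, rose from 42.5 ± 1.91 to 199.5 ± 8.01 RPKM, Atf3 from 1.02 ± 0.223 to 10.6 ± 2.07, and Ppp1r15a, which restarts translation by dephosphorylating eIF2, from 9.91 ± 1.28 to 82.99 ± 3.43. Gdf15, a stress hormone, rose from 0.374, 0.223 and 0.0803 RPKM to 1.66, 5.15 and 2.27, the widest spread among these. The eIF2 kinase genes stood aside: Eif2ak3 (PERK) was the 1 member that fell, from 6.99 ± 0.336 to 4.73 ± 0.0766 RPKM, and Eif2ak4 (GCN2) was at 7.58 and 8.01 without passing.

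Genes of the unfolded protein response went both ways. Of 22 tested, 7 were higher and 7 lower, with a median of -0.02 (5 and 10 under trimmed-mean scaling). Hspa5, the main chaperone of the endoplasmic reticulum, was at 279, 278 and 306 RPKM in control and 298, 234 and 268 in FGF9 and did not pass (adjusted p = 0.188, limma), though it was called lower after trimmed-mean scaling. Herpud1, a degradation factor, rose from 17.3 ± 1.09 to 40.3 ± 1.89 RPKM, whereas Sdf2l1 fell from 7.77 ± 0.899 to 2.93 ± 0.144 and calreticulin (Calr) from 486 ± 16.7 to 276 ± 16.3.

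The DNA element that ATF4 and its partners are known to bind, TGATGNAA, was looked for on both strands in the 250 bases before each gene's start in the RefSeq promoter table (GRCm38.p6). It was in the promoters of 1056 of 27025 genes of the table (3.91%). Of the ATF4 list, 19 of 20 genes matched and 6 held it: Chac1, Atf3, Nupr1, Fgf21, Vldlr and Jdp2. Of 17 serine and one-carbon genes 14 matched and none held it. At 3.91% over the table, absence from so few genes is not read as a difference. For amino acid enzymes, tRNA synthetases and amino acid transporters fewer than 80% of the list matched, so no share is read for them. Among their matched genes it was in Asns, Got1, Pycr1, Aars, Gars, Tars, Slc7a7 and Slc7a11. A match is a description of the letters and not evidence of a bound site or of a cause. The stretches below show the element in 5 genes, with the match in capitals, where TTGCATCA is the same element read from the opposite strand. They lie at chr2:119351009-119351096 (plus strand), chr6:7693210-7693272 (minus), chr1:191183396-191183483 (minus), chr7:126625533-126625620 (minus) and chr3:50443614-50443719 (minus).
Chac1: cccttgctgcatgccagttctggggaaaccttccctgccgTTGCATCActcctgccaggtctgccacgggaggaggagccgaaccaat
Asns: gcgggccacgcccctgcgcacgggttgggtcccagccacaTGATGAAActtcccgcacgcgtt
Atf3: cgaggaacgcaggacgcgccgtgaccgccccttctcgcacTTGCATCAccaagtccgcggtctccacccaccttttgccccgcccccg
Nupr1: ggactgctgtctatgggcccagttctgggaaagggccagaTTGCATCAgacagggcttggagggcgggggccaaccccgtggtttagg
Slc7a11: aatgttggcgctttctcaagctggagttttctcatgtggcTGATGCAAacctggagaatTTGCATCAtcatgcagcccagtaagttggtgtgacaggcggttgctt
The genes with these stretches differed in response. Asparagine synthetase (Asns) was at 16.8, 16.2 and 18.1 RPKM in control and 173, 151 and 164 in FGF9 (log2 change 3.22 ± 0.06), and Nupr1, a stress-induced nuclear protein, at 49.1, 46.9 and 46.4 and 166, 163 and 160.4 (log2 change 1.77 ± 0.05). Slc7a11, the cystine importer, holds 2 matches yet stood at 15.2, 15.4 and 14.1 RPKM in control and 19.1, 18.8 and 19.1 in FGF9, a log2 change of 0.34 ± 0.06.

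Amino acid supply genes rose along with the ATF4 list. Of 17 serine and one-carbon genes, 12 were higher and 2 lower, with a median of 0.77. Phgdh, Psat1 and Psph, the enzymes that make serine from a glycolytic intermediate, rose from 37.2 ± 5.12 to 162 ± 18.5, from 47.9 ± 3.04 to 222 ± 3.16 and from 13.9 ± 0.787 to 70.4 ± 4.21 RPKM. The mitochondrial folate enzymes changed most: Mthfd2 was at 16.9, 15.2 and 17.5 RPKM in control and 192, 188 and 190.5 in FGF9 (log2 change 3.49 ± 0.05), and Shmt2 at 19.1, 16.6 and 16.7 and 122, 180.5 and 152 (log2 change 3.06 ± 0.12). Shmt1, the cytosolic counterpart, rose from 14.2 ± 0.195 to 34.4 ± 1.09 RPKM, and Aldh1l1, a cytosolic folate enzyme, fell from 8.04 ± 0.659 to 2.28 ± 0.32 while its mitochondrial relative Aldh1l2 rose from 17.4 ± 0.272 to 100.1 ± 4.75.

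Of 20 enzymes for other amino acids, 13 were higher and 1 lower (13 and 4 under trimmed-mean scaling). Cth, which makes cysteine from cystathionine, was at 3.51, 3.39 and 3.55 RPKM in control and 69.5, 65.04 and 65.7 in FGF9 (log2 change 4.08 ± 0.06, adjusted p = 1.08e-16, limma). Gpt2, a mitochondrial alanine aminotransferase, rose from 3.48 ± 0.14 to 46.5 ± 3.47 RPKM and its cytosolic relative Gpt was at 2.09 and 1.59 without passing. Odc1, the first enzyme of polyamine synthesis, rose from 20.4 ± 0.979 to 79.2 ± 0.887 RPKM, and Ass1, of arginine synthesis, from 14.9 ± 0.799 to 63.03 ± 2.97. Among 19 amino acid transporters, 12 were higher and 5 lower. Slc7a5 and Slc3a2, the chains of the leucine importer, rose from 15.9 ± 0.363 to 108 ± 5.62 and from 45.2 ± 0.911 to 203 ± 1.58 RPKM. The arginine carrier Slc7a3 rose from 0.69 ± 0.298 to 10.8 ± 1.77 RPKM, while the glutamate carrier Slc1a3 fell from 64.6 ± 3.04 to 8.69 ± 0.426.

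All 20 cytosolic aminoacyl-tRNA synthetases, which load amino acids onto tRNA, were higher in FGF9, and 19 after trimmed-mean or quantile scaling. Their median was 1.54, and 14 rose at least 2-fold. Nars, for asparagine, was at 86.2, 96.02 and 104 RPKM in control and 406, 330.5 and 371 in FGF9, and Lars, for leucine, at 29.7, 29.3 and 30.6 and 150.2, 122 and 137. In both genes every FGF9 library lay above every control library, and 65.8% of all genes tested had no overlap between the groups. The mitochondrial synthetases moved little by comparison, with 8 of 17 higher and 3 lower and a median of 0.23 (5 and 3 under trimmed-mean scaling). Lars2 was the largest of the falls, at 67.97, 221 and 39.1 RPKM in control and 41.8, 29.8 and 29.9 in FGF9, and its high value is in the control library with the high 18S level. Without that library, its log2 change of -1.32 became -0.62, and with the 6 libraries fitted alone it did not pass.

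Among growth and division genes, those of ribosome biogenesis and most of DNA replication rose, whereas mitosis genes went both ways. Every one of 28 ribosome biogenesis genes was higher, with a median of 0.99, and the count was 28 under trimmed-mean and quantile scaling too. Myc was at 11.1, 9.04 and 10.6 RPKM in control and 20.7, 24.4 and 22.7 in FGF9, and the nucleolar proteins Ncl and Npm1 rose from 181 ± 13.3 to 330.3 ± 32.7 and from 759.9 ± 50.99 to 1126 ± 107 RPKM. Rrp9, a processing factor of ribosomal RNA, rose from 4.24 ± 0.557 to 12.6 ± 3.4 RPKM. Of 29 DNA replication genes, 20 were higher and 1 lower, with a median of 0.48 and none at 2-fold. The 1 lower gene was Gins3, of the replicative helicase, from 8.91 ± 0.356 to 6.92 ± 0.561 RPKM. Cdt1, the licensing factor, rose from 19.04 ± 0.308 to 38.5 ± 2.3 RPKM, Mcm2 of the helicase from 48.7 ± 3.1 to 86.6 ± 6.71, and Pcna was at 299.8 and 314 without passing. For 27 mitosis genes the median was 0.08, with 9 higher and 5 lower, and 9 and 11 under trimmed-mean scaling. Cdc20, which triggers anaphase, fell from 47.9 ± 3.53 to 28.9 ± 4.01 RPKM, Ndc80, of the kinetochore, rose from 24.9 ± 2.27 to 44.5 ± 2.45, and Ccnb1, the mitotic cyclin B, was at 61.1 and 64.1 without passing.

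The G1 regulators were led by the D-type cyclins. Ccnd1 was at 7.7, 7.56 and 7.97 RPKM in control and 46.8, 46.3 and 49.9 in FGF9 (log2 change 2.55 ± 0.08), and Ccnd2 rose from 17.3 ± 0.7 to 38.7 ± 0.955. Both were higher in every FGF9 library than in any control library, and 65.8% of all genes tested had no overlap between the groups. In all, 12 of 21 G1 regulators were higher and 5 lower (9 and 6 under trimmed-mean scaling). Rbl2, the pocket protein of quiescent cells, fell from 12.6 ± 0.472 to 5.92 ± 0.308 RPKM. The CDK inhibitor Cdkn1b fell from 34.7 ± 1.69 to 25.98 ± 2.9 RPKM, and Cdkn1a was at 16.4 and 17.9 without passing. The SV40 large T antigen that these cells carry is known to bind the pocket proteins, in both groups alike.

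Glucose uptake and glycolysis genes rose in FGF9, 16 of 26 higher and 4 lower, with a median of 0.80. Slc2a1, the glucose transporter GLUT1, was at 15.6, 14.02 and 14.2 RPKM in control and 40.7, 54.4 and 47.7 in FGF9 (log2 change 1.66 ± 0.10). Slc16a3, the lactate exporter MCT4, was at 4.29, 3.22 and 2.99 and 14.1, 25.4 and 18.7 RPKM (log2 change 2.29 ± 0.18). Hk2, an inducible hexokinase, rose from 1.32 ± 0.237 to 5.2 ± 0.329 RPKM, and Pgk1, a later enzyme of the pathway, from 181 ± 5.61 to 553 ± 21.4. The 4 lower genes were Pfkm, Pfkfb3 and Pfkfb4, which act on fructose 6-phosphate, and the transporter gene Slc16a4. Pfkfb3 lost its call in 5 of 16 alternatives. The pentose phosphate, hexosamine and glucose-sensing genes went both ways, 7 of 20 higher and 7 lower, with the thioredoxin inhibitor Txnip at 109 RPKM in control and 88.7 in FGF9, Gnpnat1 of the hexosamine pathway higher by 1.54 on the log2 scale, and Pgd of the pentose pathway changed by -0.93.

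Of 23 genes of oxygen sensing and the hypoxia factor HIF, its targets included, 13 rose and 3 fell (13 and 5 under trimmed-mean scaling). Vegfa, the vascular growth factor, was at 10.6, 10.3 and 12.6 RPKM in control and 49.8, 64.5 and 58.02 in FGF9 (log2 change 2.31 ± 0.11). Ero1l, an oxidase of protein folding, rose from 19.4 ± 0.441 to 108 ± 8.84 RPKM, Egln3, an oxygen-sensing hydroxylase, from 0.625 ± 0.139 to 5.44 ± 0.102, and Car9, a carbonic anhydrase, from 0.0512 ± 0.0315 to 2.74 ± 0.685. Adm, the vasodilator adrenomedullin, is a HIF target that fell, from 41.4 ± 3.59 to 6.91 ± 0.39 RPKM, and the other falls were P4ha2 and Mxi1. Epas1, the gene of HIF-2 alpha, was at 0.399 and 0.268 RPKM and did not pass.

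Mitochondrial and lipid oxidation genes had medians close to that of all genes. The median of 44 respiratory chain and ATP synthase genes was 0.12, with 18 higher and 7 lower, and 10 and 12 under trimmed-mean scaling. Cycs (cytochrome c) rose from 77.2 ± 4.38 to 141 ± 7.88 RPKM and Uqcrq, a subunit of complex III, from 28.3 ± 6.38 to 73.9 ± 31.1, whereas Cox6c fell from 303 ± 10.8 to 182 ± 19.99. Of 34 citrate cycle and fatty acid oxidation genes, 10 were higher and 12 lower (8 and 17 under trimmed-mean scaling). Acaa2, a thiolase of fatty acid oxidation, fell from 52.7 ± 2.42 to 21.4 ± 1.51 RPKM and Idh1, a cytosolic source of NADPH, from 76.5 ± 2.95 to 32.2 ± 1.13.

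Cholesterol synthesis genes fell, 19 of 24 lower and 1 higher, with a median of -0.71. The 1 rise, Insig1, which holds back the SREBP factors, was from 26.7 ± 0.824 to 30.8 ± 0.351 RPKM and did not pass after trimmed-mean or quantile scaling. Hmgcs1, an early synthase, was at 106, 106 and 104 RPKM in control and 40.4, 39.5 and 42.1 in FGF9 (log2 change -1.36 ± 0.09). Nsdhl, a sterol dehydrogenase, fell from 39.4 ± 2.03 to 15.9 ± 1.11 RPKM and Tm7sf2, a sterol reductase, from 14.1 ± 1.98 to 3.02 ± 0.586. The sterol element TCACNCCAC, searched on both strands as above, was in the promoters of 331 of 27025 genes (1.22%). Fewer than 80% of the sterol list matched, so no share is read for it. It was in Hmgcs1, at chr13:119690174-119690262 on the plus strand. It is shown in capitals.
Hmgcs1: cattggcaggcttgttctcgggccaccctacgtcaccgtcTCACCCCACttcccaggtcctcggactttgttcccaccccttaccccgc

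Secreted lipases and lipid carriers were among the larger falls of lipid genes. Of 23 genes of lipases, lipid carriers and triglyceride turnover, 13 were lower and 6 higher (13 and 4 under trimmed-mean scaling). Lipg, endothelial lipase, was at 16.7, 17.6 and 16.8 RPKM in control and 0.679, 0.853 and 0.649 in FGF9, and Enpp2, the secreted lysophospholipase autotaxin, at 14.8 ± 0.735 and 0.973 ± 0.0521. Apoe, a lipoprotein component, fell from 130.4 ± 18.8 to 22.1 ± 2.49 RPKM and Pltp, a phospholipid transfer protein, from 33.1 ± 4.38 to 6.22 ± 0.603. Angptl2, an angiopoietin-like secreted protein, rose from 13.1 ± 1.08 to 66.99 ± 6.53 RPKM. Among 24 glutathione and NRF2 genes, 6 were higher and 10 lower (5 and 13 under trimmed-mean scaling). Gpx3, a secreted peroxidase, fell from 61.3 ± 1.82 to 5.0 ± 0.315 RPKM and the glutathione transferase Gstm1 from 156 ± 2.8 to 19.8 ± 0.826. Another transferase, Gsto1, rose from 33.4 ± 0.909 to 180.1 ± 4.46.

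**Figure D3:**
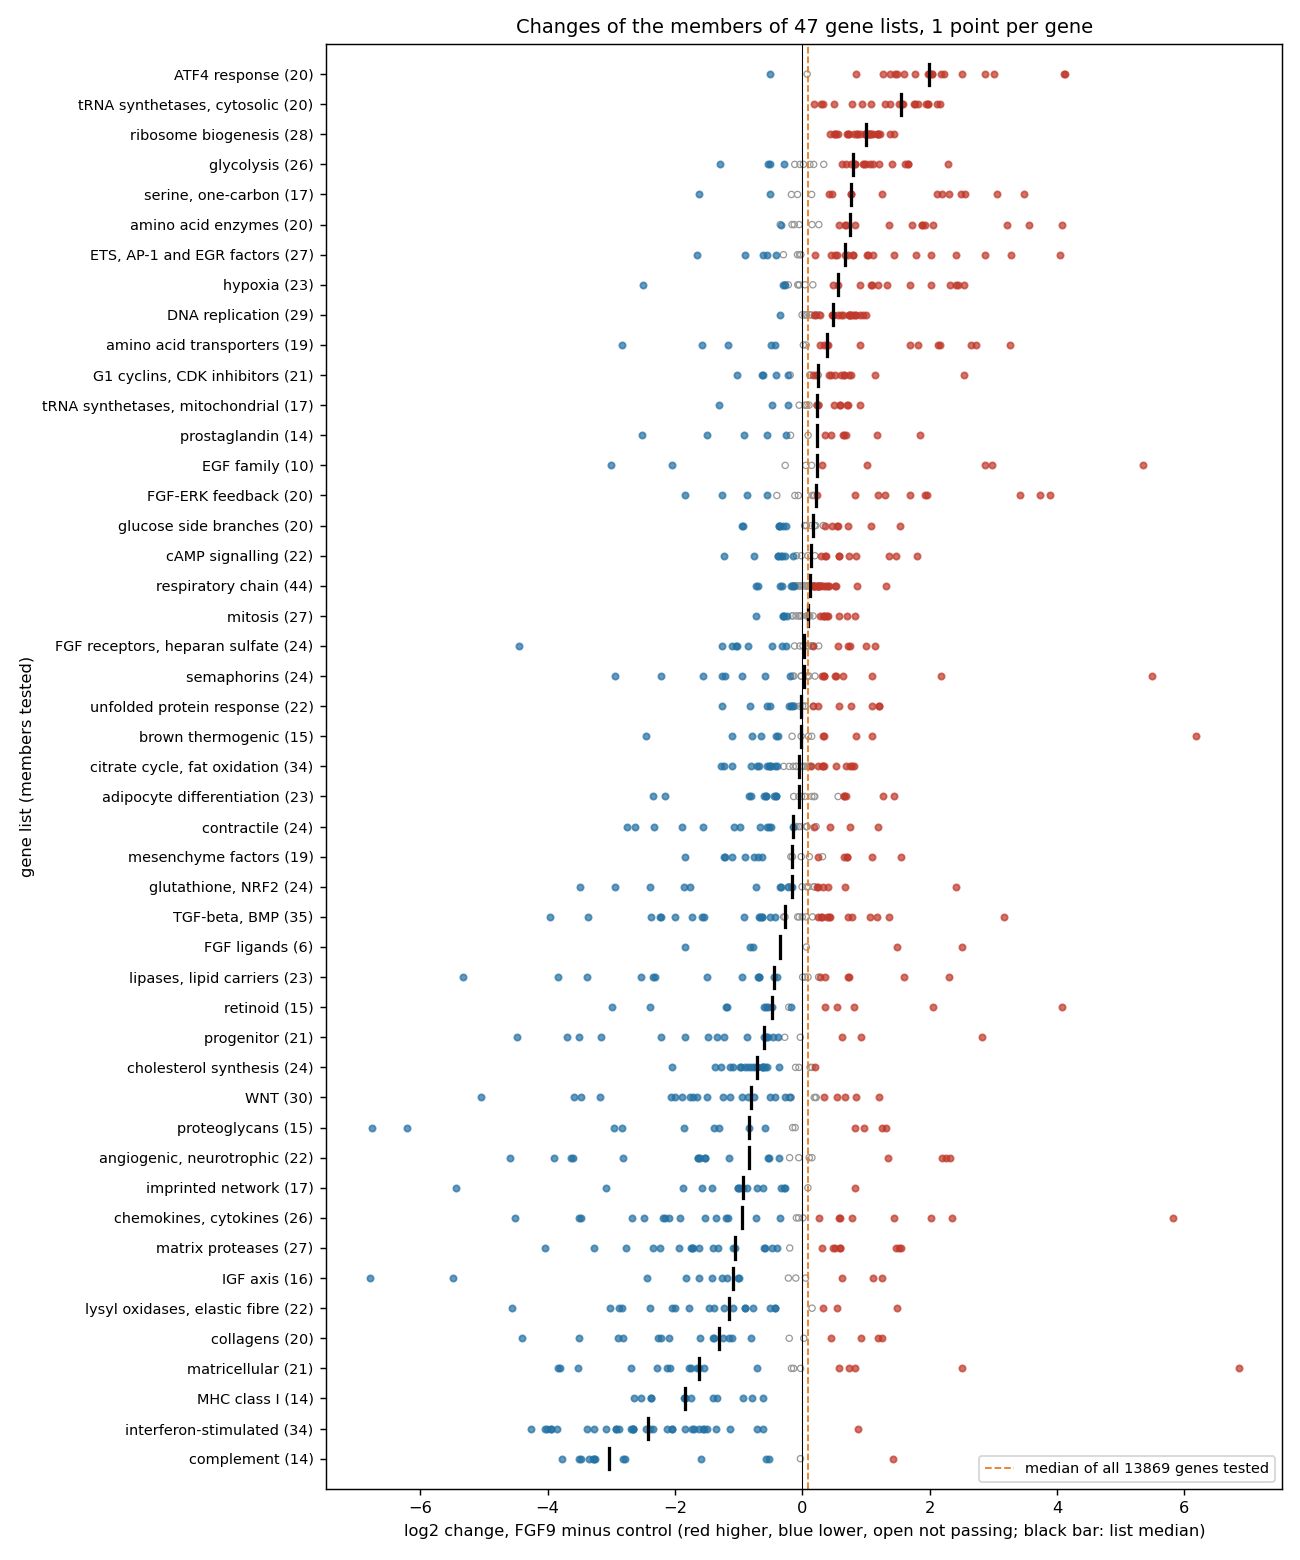
Each row is 1 of 47 gene lists with its number of members tested, and each point is the log2 change of 1 gene, FGF9 minus control, red where higher, blue where lower and open where not passing. Black bars mark list medians, which run from -3.04 for complement to 1.98 for the ATF4 response, and the dashed line is the median of all 13869 genes.

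The extracellular matrix was lowered on a broad front, with a few strong exceptions. Of 20 collagens, 14 were lower and 4 higher, with a median of -1.32. The fibrillar collagen genes Col1a1 and Col1a2 were at 523, 374 and 401 and 1113, 916 and 944 RPKM in control, and at 65.3, 118 and 90.1 and 182, 244 and 211 in FGF9. Col14a1, which organises fibrils, fell from 18.1 ± 1.09 to 0.377 ± 0.0372 RPKM and Col12a1 from 17.1 ± 2.24 to 1.04 ± 0.0579. The basement membrane collagen Col4a1 rose from 32.2 ± 3.71 to 61.5 ± 3.42 RPKM, and the other rises of the list were Col4a2, Col7a1 and Col18a1.

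Lox, the lysyl oxidase that cross-links collagen and elastin, was at 730.5, 730.1 and 801 RPKM in control and 30.6, 30.3 and 33.8 in FGF9 (log2 change -4.56 ± 0.10, adjusted p = 4.76e-15, limma). All of the FGF9 libraries were below the control libraries by more than 10 times. In its list of lysyl oxidases and elastic fibre proteins, 18 of 22 were lower and 3 higher. Eln (elastin) fell from 3.86 ± 0.31 to 0.805 ± 0.363 RPKM and Fbn1 (fibrillin) from 210.4 ± 6.86 to 89.8 ± 5.88. Matricellular proteins had a median of -1.63, with 13 of 21 lower and 5 higher. Postn (periostin) was at 2384, 2283 and 2466 RPKM in control and 179.9, 148 and 172 in FGF9, and Wisp2 at 34.4 ± 4.67 and 2.02 ± 0.468. Besides Spp1, tenascin C (Tnc) rose, as did fibronectin (Fn1), Thbs4 and Cilp. The proteoglycans were 9 of 15 lower and 4 higher. Dcn (decorin) rose from 474 ± 11.1 to 844 ± 54.8 RPKM while Ogn and Aspn, above, had the largest falls of the list, and Omd, their relative, fell from 4.07 ± 0.406 to 0.0898 ± 0.0835.

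Matrix proteases and their inhibitors were 18 of 27 lower and 8 higher. Adamts1, a proteoglycan-cutting protease, was at 140.2, 144 and 145 RPKM in control and 8.52, 7.74 and 8.29 in FGF9 (log2 change -4.05 ± 0.06). Mmp2, a gelatinase, fell from 138 ± 15.8 to 65.8 ± 2.13 RPKM, Mmp9 from 3.76 ± 0.426 to 0.41 ± 0.117, and Adamts5 from 41.3 ± 1.05 to 3.81 ± 0.177. Timp3, an inhibitor of these proteases, rose from 81.4 ± 5.48 to 122 ± 1.22 RPKM.

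Among 24 contractile genes 12 fell and 4 rose (16 and 3 under trimmed-mean scaling), with a median of -0.14. Acta2, smooth muscle actin, was at 43.8, 40.5 and 39.2 RPKM in control and 11.1, 10.6 and 10.3 in FGF9, Tagln (transgelin) at 65.8, 58.1 and 55.7 and 8.7, 8.66 and 7.97, and Myl9, a myosin light chain, at 29.9, 26.5 and 22.5 and 5.08, 4.67 and 4.67. The 3 genes had no overlap between groups, as had 65.8% of all genes tested. Amotl2, a YAP target, fell from 33.9 ± 4.31 to 5.07 ± 0.641 RPKM and Ankrd1, another, rose from 9.15 ± 0.468 to 21.5 ± 0.724. The CArG box, the element that serum response factor is known to bind, was in the promoters of 439 of 27025 genes (1.62%) and in 4 of the 21 matched contractile genes, Myl9, Cnn2, Vcl and Srf. The stretch of Myl9 at chr2:156775263-156775352 on the plus strand is shown with the box in capitals.
Myl9: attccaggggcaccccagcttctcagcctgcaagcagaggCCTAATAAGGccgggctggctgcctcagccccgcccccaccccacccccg

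Interferon-stimulated genes, which defend cells against viruses, fell almost as 1 block. Of 34 listed, 33 were lower and 1 higher, with a median of -2.42, and 31 fell at least 2-fold where 8.39% of all genes did. This list, too, was chosen with earlier results of these data known. Ifit3, a binder of foreign RNA, was at 942, 849 and 934 RPKM in control and 48.3, 47.4 and 44.8 in FGF9 (log2 change -4.26 ± 0.26, adjusted p = 6.47e-10, limma). Rsad2, the antiviral enzyme viperin, was at 42.01, 33.6 and 45.9 RPKM and 2.14, 2.19 and 2.07, and Oas2, a sensor of double-stranded RNA, at 26.4, 23.7 and 30.4 and 1.21, 1.1 and 1.17. The lowest control library of Ifit3, Rsad2 and Oas2 lay more than 10 times above the highest FGF9 library. The regulator Irf7 fell from 212 ± 22.5 to 32.8 ± 2.13 RPKM. Isg15, a ubiquitin-like protein, fell from 408 ± 54.9 to 77.2 ± 9.0 RPKM. The 1 rise was Ifi27, from 60.9 ± 6.49 to 112 ± 1.02 RPKM. Many Ifit, Oas, Gbp and Ifi genes have close copies, so how reads divide among them is uncertain. Ifnb1, the interferon beta gene, picked after its values were seen, had 80 reads in control and 2 in FGF9, at 0.818, 1.15 and 1.04 RPKM and at 0.0325, 0.0312 and 0. Its ratio of levels was 0.0219 (exact 95% interval 0.00261 to 0.0818, counting error only).

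The interferon-stimulated response element was searched as GAAANNGAAA on both strands in the same 250 bases. It was in the promoters of 936 of 27025 genes (3.46%). Of 34 interferon-stimulated genes 24 matched, fewer than 80%, so no share is read for the list. It was in 11 of them: Isg15, Ifit1, Ifit3, Oas1a, Oas3, Rsad2, Stat2, Bst2, Gbp2, Gbp3 and Trim30a. Stretches of 4 of them are printed, at chr19:34640745-34640853 (plus strand), chr19:34583333-34583456 (plus), chr12:26456523-26456612 (minus) and chr4:156200835-156200936 (minus), with the matches in capitals. In Isg15 3 matches overlap.
Ifit1: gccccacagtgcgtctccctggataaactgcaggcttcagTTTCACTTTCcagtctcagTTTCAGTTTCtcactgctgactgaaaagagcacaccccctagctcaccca
Ifit3: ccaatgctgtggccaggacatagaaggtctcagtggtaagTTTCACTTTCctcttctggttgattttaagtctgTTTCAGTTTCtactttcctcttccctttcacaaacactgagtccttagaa
Rsad2: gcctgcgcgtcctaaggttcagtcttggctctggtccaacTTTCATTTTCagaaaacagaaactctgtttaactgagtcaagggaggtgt
Isg15: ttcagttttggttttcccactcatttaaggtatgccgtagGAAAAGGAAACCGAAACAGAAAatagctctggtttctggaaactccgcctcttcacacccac
Ifit1 and Ifit3, with 2 matches each, had log2 changes of -2.92 and -4.26, and Isg15 of -2.39. The letters say nothing of which factor was bound in these cells.

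Antigen presentation fell with them. All 14 tested MHC class I and antigen processing genes were lower, with a median of -1.84. B2m, the light chain shared by class I molecules, was at 2294, 2201 and 2027 RPKM in control and 881, 777 and 798 in FGF9 (log2 change -1.41 ± 0.08), and H2-K1, a heavy chain, at 369, 313 and 343 and 87.1, 102 and 92.4. The immunoproteasome subunit Psmb9 fell from 34.9 ± 4.99 to 5.27 ± 1.43 RPKM and the peptide transporter Tap1 from 52.9 ± 8.99 to 9.8 ± 1.57. The H2 genes are near-identical relatives, so how the reads divide among them is uncertain. The element above was in B2m and H2-T23, 2 of the 12 genes of this list that matched.

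Complement had the lowest median of the 47 lists, -3.04, with 12 of 14 lower and 1 higher. C1s, a protease of the classical pathway, was at 328, 319 and 374 RPKM in control and 26.4, 21.3 and 25.1 in FGF9 (log2 change -3.78 ± 0.11), and its inhibitor Serping1 at 86.8, 69.9 and 88.2 and 7.18, 6.62 and 6.81. C3, the central component, fell from 4.73 ± 0.903 to 0.256 ± 0.1 RPKM. Masp1, a protease of the lectin pathway, was the 1 rise, from 2.73 ± 0.278 to 8.15 ± 0.309 RPKM, and Cfp (properdin) did not pass.

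Among chemokines and stromal cytokines, 15 of 26 were lower and 8 higher. Cxcl12, which holds blood and immune cells in stroma, was at 431, 399 and 464 RPKM in control and 64.1, 69.98 and 67.5 in FGF9 (log2 change -2.67 ± 0.06). The interferon-induced Cxcl9 and Cxcl10 fell from 22.2 ± 2.27 to 0.492 ± 0.0486 and from 133 ± 19.6 to 11.2 ± 1.18 RPKM. Cxcl5, a neutrophil attractant, fell from 5.81 ± 0.449 to 0.0656 ± 0.0358 RPKM. Ccl2, a monocyte attractant, was at 82.04 and 98.3 RPKM, a log2 change of 0.26 that did not pass under trimmed-mean scaling. The higher members were led by Il33, Tslp, another alarmin, from 0.988 ± 0.148 to 7.1 ± 0.534 RPKM, and Cxcl14, from 4.47 ± 0.357 to 19.6 ± 2.13.

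The cells' own growth factor genes moved in both directions, EGF receptor ligands upward and the insulin-like growth factor axis mostly downward. Of 10 tested EGF family genes, 5 were higher and 2 lower. Besides Areg, Hbegf was at 2.06, 1.6 and 1.69 RPKM in control and 18, 16.5 and 17.6 in FGF9, and Ereg at 0.288 ± 0.00383 and 5.27 ± 0.186. Egfr, their receptor, fell from 35.5 ± 0.958 to 8.19 ± 0.643 RPKM, and Nrg1, a ligand of other ERBB receptors, from 8.37 ± 0.156 to 0.605 ± 0.0495. In the insulin-like growth factor axis, 10 of 16 were lower and 3 higher, with Igfbp5 falling from 14.5 ± 1.6 to 2.24 ± 0.138 RPKM and the adaptor Irs1 from 8.82 ± 1.08 to 2.11 ± 0.19. Of 22 angiogenic and neurotrophic genes, 14 were lower and 4 higher. Ptn, the heparin-binding growth factor pleiotrophin, was at 922, 844 and 783 RPKM in control and 50.1, 65.1 and 54.1 in FGF9, and Figf, the lymphatic factor VEGF-D, fell from 63.1 ± 5.38 to 2.14 ± 0.0793. Pdgfa, a ligand of the lowered receptor Pdgfra, rose from 1.62 ± 0.528 to 9.45 ± 1.15 RPKM, and Bdnf, a neurotrophin, from 2.25 ± 0.0608 to 12.1 ± 0.887. Kdr, a VEGF receptor gene, fell from 6.18 ± 0.726 to 0.048 ± 0.0182 RPKM. Kdr is also 1 of the 10 endothelial markers, of which Tek fell too, Egfl7 rose, Vwf did not pass and the other 6 were below the level for testing, with 0 to 16 reads in control and 0 to 27 in FGF9. The part of these markers in the fall of Kdr was not tested.

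Of 30 WNT pathway genes 20 fell and 5 rose, with a median of -0.81. The secreted antagonists Sfrp1 and Sfrp2 were at 88.96, 77.9 and 89.3 and 95.5, 77.1 and 85.9 RPKM in control, and at 7.13, 5.68 and 7.15 and 6.26, 8.61 and 7.09 in FGF9. Rspo2, an amplifier of WNT signals, fell from 10.8 ± 0.694 to 0.752 ± 0.157 RPKM, and Wnt5a, a ligand of the pathway without beta-catenin, rose from 4.56 ± 0.553 to 8.6 ± 0.876. For TGF-beta and BMP genes 12 of 35 were higher and 16 lower (10 and 19 under trimmed-mean scaling). Grem1, a secreted BMP antagonist, was at 7.92, 7.96 and 9.31 RPKM in control and 88.5, 70.2 and 79.8 in FGF9, while the antagonists Chrdl1 and Fst fell from 33.5 ± 3.33 to 1.66 ± 0.138 and from 17.5 ± 0.937 to 1.25 ± 0.163 RPKM. Bmp4 fell from 1.75 ± 0.274 to 0.0561 ± 0.0295 RPKM, and Inhba, which makes activin, rose from 3.95 ± 0.24 to 9.5 ± 0.162.

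Of 17 imprinted genes of the growth network 15 fell and 1 rose, with a median of -0.94. H19, a noncoding RNA, was at 204, 189 and 214 RPKM in control and 49.8, 59.4 and 55.1 in FGF9, and its neighbour Igf2 fell from 2.21 ± 0.297 to 0.516 ± 0.0945. Plagl1, a transcription factor of the network, fell from 38.9 ± 4.56 to 4.12 ± 0.154 RPKM and Dlk1, an inhibitor of fat cell differentiation, from 201 ± 24.8 to 112 ± 25.9. The 1 member that rose was Dcn. Of 19 tested mesenchyme transcription factors, 6 were higher and 8 lower. Scx, a tendon factor, rose from 0.264 ± 0.0474 to 1.75 ± 0.227 RPKM and Runx1 from 1.23 ± 0.203 to 3.17 ± 0.224, while Osr2 fell from 12.7 ± 2.27 to 3.22 ± 0.956.

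Transcripts of prostaglandin and cyclic AMP genes went both ways. Ptgs2, the inducible cyclooxygenase, was at 2.81, 3.02 and 3.35 RPKM in control and 14.1, 11.01 and 12.04 in FGF9 (log2 change 1.85 ± 0.09), and Ptgfr, the prostaglandin F receptor, at 13.5, 14.6 and 12.4 and 1.7, 2.05 and 2.08. Ptges, the synthase of prostaglandin E, was at 6.92 and 5.78 RPKM, a log2 change of -0.25 (adjusted p = 0.0392, limma) that passed by a narrow margin and did not pass in 7 other fits. Across 14 tested prostaglandin genes, 7 were higher and 5 lower (7 and 6 under trimmed-mean scaling). Of 22 cyclic AMP genes, 10 were higher and 8 lower (9 and 9 under trimmed-mean scaling). Adcy8, a calcium-activated adenylyl cyclase, had 4 reads in control and 768 in FGF9. Among 24 semaphorins and plexins, 9 were higher and 8 lower (8 and 9 under trimmed-mean scaling). Sema5a rose from 2.51 ± 0.186 to 13.1 ± 0.458 RPKM and Sema3d fell from 5.63 ± 0.82 to 0.297 ± 0.0415.

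FGF8b gave levels close to those of FGF9 across the transcriptome, and the direct test between them found few genes. Correlations across genes between FGF9 and FGF8b libraries, 0.9925 to 0.9962, lay in the range seen among FGF9 libraries. In the same limma fit, FGF9 differed from FGF8b in 41 of 13869 genes (0.296%), 28 higher in FGF9 (0.202%) and 13 lower (0.0937%). On the log2(RPKM + 0.5) scale none reached 2-fold, and the largest absolute difference was 0.80, for Lat, a gene below 1 RPKM. That scale understates low genes: with 0.1 RPKM added 3 genes were at least 2-fold higher in FGF9, and in voom on recovered reads 4 were. At an unadjusted p of 0.05 there were 977 genes, and 1504 genes (10.8%) had no overlap between the groups. When only these 6 libraries were fitted, no gene passed in either direction, so the calls rest on the spread shared with the other groups. Leaving out 1 library at a time left 4 to 24 genes higher and 2 to 11 lower, with falls of more than 1.5 times in both directions without FGF9 replicate 2 or 3 or without any 1 of the FGF8b libraries. Spry4, Plau, Egr1 and Ptgfr lost the call in the fit of the 6 libraries alone and in no other alternative. Of the 41 genes, 40 also passed against control. The comparisons of FGF9 and of FGF8b with control share the control libraries, so only the direct test and the levels are given.

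The genes higher in FGF9 than in FGF8b included 2 of the 20 feedback genes, Spry4 and Dusp6, and 2 of the 10 EGF family genes, Areg and Hbegf. Spry4 was at 5.8, 6.1 and 6.5 RPKM in the FGF8b libraries and 10.9, 10.7 and 10.9 in the FGF9 libraries, a log2 difference of 0.77 ± 0.08 (adjusted p = 5.00e-04, limma). Plau, the urokinase plasminogen activator, was at 19.2, 19.5 and 23.5 RPKM with FGF8b and 32.1, 35.4 and 32.8 with FGF9 (log2 difference 0.68 ± 0.08, adjusted p = 0.0011). Egr1, an immediate early factor, was at 14.3, 12.9 and 15.6 RPKM in control, 11.1, 9.4 and 10.4 with FGF8b and 16.8, 16.4 and 15.9 with FGF9, with a difference of 0.64 ± 0.08 between the ligands (adjusted p = 0.00116, limma). For Spry4, Plau and Egr1 every FGF9 library lay above every FGF8b library, but this was a condition of their being named. Adcy8 was at 0.42, 0.683 and 0.765 RPKM with FGF8b and 1.09, 1.48 and 1.27 with FGF9, Cnr1, the cannabinoid receptor, at 0.745, 0.766 and 0.518 and 1.4, 1.01 and 1.48, and Aff2 at 0.487, 0.696 and 0.683 and 1.36, 1.06 and 1.63. Adcy8 and Cnr1 lost the call in 6 of 15 and 9 of 16 alternatives. These 3 lay near 1 RPKM, and Aff2 stood just inside the threshold (adjusted p = 0.0495, limma), which 13 of 15 alternatives did not reach. Dusp6 (18.6 ± 0.593 RPKM with FGF8b), Areg (15.9 ± 0.572), Sema7a (49.8 ± 7.62) and Hbegf (12.6 ± 0.324) were also higher with FGF9. These 4 calls were lost in 7, 9, 8 and 7 of 16 alternatives.

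Of the 13 genes lower in FGF9 than in FGF8b, 12 were below control in both treatments and further below it in FGF9. H19 was at 80.98, 92.4 and 114 RPKM with FGF8b against 49.8, 59.4 and 55.1 with FGF9 (log2 difference -0.79 ± 0.12, adjusted p = 0.0138, limma). Ptgfr was at 3.6, 3.63 and 3.55 RPKM with FGF8b against 1.7, 2.05 and 2.08 (log2 difference -0.75 ± 0.08), and Mme, the peptidase neprilysin, at 1.82, 1.79 and 1.8 against 1.22, 1.09 and 0.956. Control libraries of these 3 genes lay above both treated groups, and 65.8% of all genes tested had no overlap between FGF9 and control. Lrrc17, a secreted leucine-rich protein, was at 12.98, 14.8 and 16.97 RPKM with FGF8b and 9.7, 10.2 and 10.5 with FGF9, and Ogn at 4.93, 5.4 and 4.55 and 3.66, 2.83 and 3.64. Il15, a lymphocyte cytokine, was the 1 gene not called against control: it was at 3.37, 3.0 and 3.22 RPKM in control, 4.43, 5.45 and 5.08 with FGF8b and 2.59, 3.4 and 3.31 with FGF9. Pdgfra and Cxcl12 were at 39.9 ± 5.67 and 85.5 ± 5.43 RPKM with FGF8b, above their FGF9 levels. Of 16 alternatives, 10 lost the call for each of Il15, Ogn and Pdgfra, 8 for Cxcl12, 7 for Mme, 4 for Lrrc17 and 3 for H19. Ucp1 was at 25.7, 28.1 and 26.2 RPKM with FGF8b and 34.8, 40.6 and 36.9 with FGF9. Each FGF9 library was above each FGF8b library, and 10.8% of the genes tested had no overlap between these groups. In voom on recovered reads the gene passed (adjusted p = 0.0041), as it did with 1 RPKM added before the logarithm (adjusted p = 0.0246, limma). In the main fit, the difference of 0.48 ± 0.11 did not pass (adjusted p = 0.108, limma). Spp1 did not pass either (log2 difference 0.16 ± 0.06, adjusted p = 0.499, limma), but after quantile normalisation its difference was 0.42 and passed (adjusted p = 0.014).

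**Figure D4:**
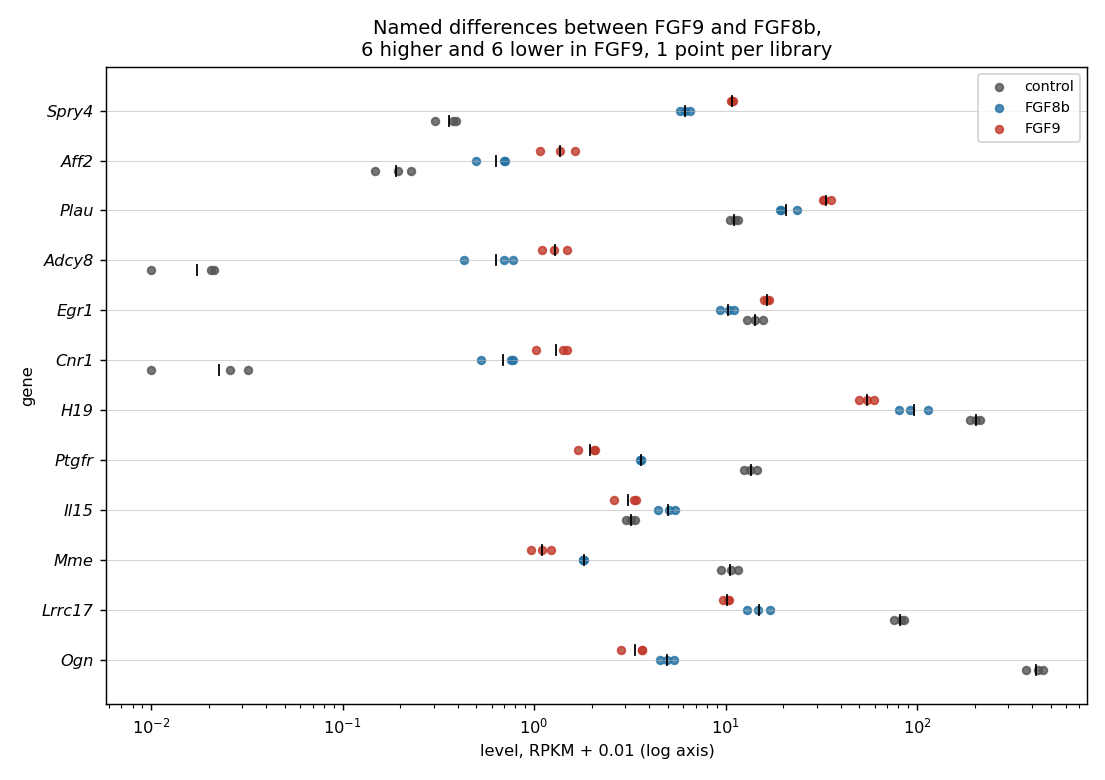
Levels in RPKM + 0.01, on a log axis, of the 6 genes with the largest called differences in each direction between FGF9 and FGF8b, among genes with a mean of at least 1 RPKM in either group, no overlap and no predicted model, with 1 point per library for control (grey), FGF8b (blue) and FGF9 (red) and black ticks at the means of 3. Both treated groups sit on the same side of control for 10 of the 12 genes, the exceptions being Egr1 and Il15, and none of the gaps between FGF9 and FGF8b reaches 2-fold on the log2(RPKM + 0.5) scale.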

How the data were processed

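RNA of brown preadipocytes was measured by RNA sequencing in 15 libraries of 5 groups. Per the labels' protocols, total RNA went through the TruSeq RNA Sample Prep kit v2. The submitters' processing notes name CASAVA and bcl2fastq without version. Which aligner, genome build and annotation were used is not given in these sources. The authors deposited 1 table with 168326 transcript lines and 15 value columns and no unit in its header. Multiplied by transcript length, low values fell on whole steps of a size particular to each library, so the deposited values were taken as RPKM. The 23172 lines without a symbol were left out, and 1 line was kept per symbol, the one with the highest mean. Read totals of 27.0 to 42.6 M came from the size of those steps, 1 read on 1 kb being worth 0.0241 to 0.0316 RPKM in the control and FGF9 libraries. Whole reads came out for 100% of the genes tested, within 0.02 of a read plus an allowance that grew with the number of reads. The limit was therefore looser for genes with many reads. The transcript length that these reads imply equalled the annotated one for 90.9% of 3476 Ensembl lines. These lengths and gene coordinates are of GENCODE vM21 (GRCm38).

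Genes at 0.5 RPKM or more in 3 libraries were tested with limma 3.58.1 in R 4.3.3, on log2(RPKM + 0.5), with all 5 groups in 1 fit (10 residual degrees of freedom, trended variance, Benjamini-Hochberg adjustment, threshold 0.05). Alternatives were a pseudocount of 0.1 or 1 RPKM, no filter or 2 RPKM, trimmed-mean or quantile scaling, the 6 libraries alone, a replicate block, RefSeq lines only, voom on the recovered reads, and each replicate left out. On simulated data for FGF9 against control the fit recovered 72% of log2 changes of 0.5 and 100% of changes of 1. The fit was of 13869 genes and called 0.0512% of the unchanged ones. Whether these rates hold for the measured data, in which 65.7% of the genes tested were called, was not tested.

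The members and gene lists were chosen with earlier results of these data known. Genes were named by rule: the 12 largest changes in each direction with a mean of at least 1 RPKM and no overlap (6 for FGF9 against FGF8b), and from each list the first 3 members and the 6 with the largest changes. Named after their values were seen were Aldh1l1, Angptl2, Bdnf, Cfp, Cxcl14, Eif2ak3, Eif2ak4, Epas1, Gdf15, Gins3, Gpt, Ifi27, Ifit1, Il17rd, Insig1, Klf4, Masp1, Nupr1, Pdgfa, Shmt1, Tslp, the collagens other than those of the rule, the members named only as further rises or falls of a list, and, for FGF9 against FGF8b, Lat, Dusp6, Areg, Sema7a, Hbegf, Pdgfra, Cxcl12, Ucp1 and Spp1. Fewer than 80% of the members of some lists matched the promoter table, and no share is given for those. Promoter sequences are those of RefSeq (GRCm38.p6).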

Additional observations from a re-analysis of the deposited data

How the results depend on the processing

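Counts for FGF9 against control stayed within 1.5 times under every alternative run, and leaving out 1 replicate at a time gave 4903 to 5263 genes higher and 3519 to 3652 lower. Of 424 genes named for this comparison, 391 kept call and direction throughout. With RefSeq lines only, 2 reversed: Fgf2 became -0.40 and Csf1r, a macrophage marker, became -0.46, where another transcript line stood for the gene. Against FGF8b the counts were unstable. The 28 genes higher became 17 with a pseudocount of 0.1 RPKM, 0 with the 6 libraries alone, 52 with RefSeq lines only and 49 with voom. The 13 genes lower became 0 with the 6 libraries alone. At 2-fold, 0 genes higher became 3 with a pseudocount of 0.1 RPKM and 4 with voom, and the cause was not tested. Leave-one-out values were 4 to 24 higher and 2 to 11 lower: 24 and 11 without FGF9 replicate 1, 7 and 3 without replicate 2, 4 and 2 without replicate 3, and 4 and 6, 5 and 2, and 13 and 4 without FGF8b replicates 1, 2 and 3. None of the 21 genes named against FGF8b kept its call status in every alternative. Deviations of same-numbered control and FGF9 libraries from their group means had correlations of -0.443, 0.024 and 0.138. With means of only 3 libraries, these values cannot show whether the numbers pair the samples. With a replicate block, 5415 genes were higher and 3780 lower than control, and 20 higher and 10 lower than FGF8b. A gene that reached 0.5 RPKM in fewer than 3 of the 15 libraries was outside the test.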

Other observations

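A few genes had reads in 1 group and nearly none in the other. At a mean of at least 1 RPKM in FGF9 with at most 3 reads in control there were 4 genes, of which 3 are not predicted models. Besides Ucp1 these were Tmem179, a membrane protein gene, with 2 reads in control and 373 in FGF9 (ratio of levels 163, exact 95% interval 44.9 to 1350, counting error only), and Mcpt8, a protease gene, with 2 and 111 reads (ratio 48.6, 13.1 to 407). Its level was 1.1, 1.06 and 1.18 RPKM in the 3 FGF9 libraries.

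In the other direction, at a mean of at least 1 RPKM in control with at most 3 reads in FGF9, there were 16 genes, of which 14 are not predicted models. Smoc2, a secreted matricellular protein, was at 5.61, 5.06 and 6.18 RPKM in control and had 2 reads in FGF9 (ratio 0.00596, 0.000719 to 0.0217). Fndc1, a fibronectin-repeat protein, had 432 and 3 reads, and Trp63, the p63 transcription factor known from epithelium, 383 and 3. Fmo1, a flavin monooxygenase, had 253 and 2 reads, Kcnma1, a calcium-activated potassium channel, 212 and 1, and Vtn, the adhesion protein vitronectin, 183 and 1. Crygs, Pgm5 and Ltc4s had 102, 80 and 68 reads in control and 0 in FGF9. The small Y RNA genes Rny1 and Rny3 were at 2.57 and 5.33 RPKM in control replicate 2, the library with the high 18S level, and at 0 RPKM in control replicate 3, so their passing this limit rests on 1 library.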
